A study of Mus musculus with 2 samples.

Results

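Insulin-like growth factor 1 (*Igf1*), its receptor *Igf1r*, the scavenger receptor *Igf2r* and 6 binding protein genes (*Igfbp2*, *Igfbp3*, *Igfbp4*, *Igfbp5*, *Igfbp6* and *Igfbp7*) were followed across stromal cells of the mouse mammary gland at puberty and in the adult virgin. The 9 genes were chosen by symbol from the 33696 genes of the deposited matrices, and all 9 were found in both libraries.

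Both libraries came from wild-type C57BL/6 females whose glands had been dissociated and sorted for cells lacking lineage markers and CD24, a gate that depletes immune, endothelial, red blood and epithelial cells. The pubertal mice were 4 weeks old and the adult virgins 9 weeks old, with 2 females per stage according to the labels and no treatment or transgene in either group. Each stage was represented here by 1 droplet library (10x Genomics GEM-X 3′ v4), marked replicate 2 in both, so the females of a stage could not be told apart and no test between the stages was possible. Every difference is therefore one between 2 libraries, and the intervals given (95%, exact Poisson for levels and conditional binomial for ratios) cover counting error only.

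IGF1 is a secreted peptide that signals through the receptor tyrosine kinase IGF1R. In the mammary gland it is produced by stromal cells under the control of growth hormone and is required for pubertal duct growth into the fat pad. IGF2R takes up IGF2 and lysosomal enzymes and has no kinase domain. The binding proteins hold IGFs in the extracellular space, where they can lengthen the life of the ligand or keep it from its receptor, and several also bind matrix or cell surfaces without IGF.

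A floor of 500 genes per cell and a ceiling of 10% for mitochondrial molecules left 21534 pubertal and 22972 adult cells with a median of 11763 and 10842.5 unique molecular identifiers (UMIs, each marking 1 captured transcript) per cell. Cells with at least 1 UMI of *Pdgfra*, a receptor that marks fibroblasts, numbered 18878 (87.7%) at puberty and 20999 (91.4%) in the adult. Each of 5 fibroblast markers was found in at least 97.6% of them. For *Pdgfra*, 1 of the 5, this was fixed by the rule, and the others were *Dcn*, *Lum*, *Col1a2* and *Col1a1*. Within these Pdgfra+ cells, 5 overlapping subsets were set by marker genes. Cells with both *Pi16* and *Dpp4*, which mark a progenitor-like fibroblast state across tissues, made up 74.1% at puberty and 42.2% in the adult. Cells with *Gdf10* or *Fmo2* made up 39.5% and 47.9%, cells with *Thbs4* or *Bmp5* 4.91% and 14.8%, cells with 2 or more UMIs of the lipid carrier gene *Fabp4* 9.42% and 12.2%, and cells with *Crabp1* 1.53% and 12.7%. Cells without *Pdgfra* but with *Myh11* or *Rgs5*, genes of vascular smooth muscle and pericytes, are called mural here (783 and 457 cells). Of 8 mural markers, 5 at puberty and 6 in the adult were each found in at least 50% of the mural cells. These counts include the defining genes, *Myh11* at both stages and *Rgs5* in the adult. Epithelial markers summed to 34.9 counts per 1000000 UMIs (CPM) in the pubertal and 610 CPM in the adult mural cells, against 3.16 and 1.12 CPM in Pdgfra+ cells, and fibroblast markers in mural cells summed to 3361 CPM at puberty and 1130 CPM in the adult, a ratio of 0.336. Values that move with these cells are given beside the results. The libraries shared 145 cell barcodes.

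The genes lie on 7 chromosomes (GENCODE vM21, GRCm38). *Igfbp2* (chr1:72824503-72852474, plus strand) and *Igfbp5* (chr1:72857932-72874884, minus strand) face each other tail to tail with 5457 bases between them. At puberty the order of the 5 subsets by *Igfbp5* was the reverse of that by *Igfbp2*, and in the adult it was again but for Pi16+Dpp4+ and Fabp4 cells, the lowest 2 for *Igfbp2*. *Igfbp3* (chr11:7206086-7213923, minus strand) is the same kind of neighbour of *Igfbp1*, which had no UMI in Pdgfra+ cells of either library. Below are the 250 bases before the RefSeq transcription start of these 3 members, shown because *Igfbp2* and *Igfbp3* differed most between the stages and *Igfbp5* is the neighbour of *Igfbp2*. Capitals mark the GC box GGGCGG, the letters bound by SP1-family factors, searched on both strands.
Igfbp2 (chr1:72824230-72824479, plus strand): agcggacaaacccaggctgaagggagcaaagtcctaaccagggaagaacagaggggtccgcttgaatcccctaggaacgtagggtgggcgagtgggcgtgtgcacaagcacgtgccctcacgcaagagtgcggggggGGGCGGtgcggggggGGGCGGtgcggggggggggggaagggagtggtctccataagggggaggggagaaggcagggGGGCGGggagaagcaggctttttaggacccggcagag
Igfbp5 (chr1:72874866-72875115, minus strand): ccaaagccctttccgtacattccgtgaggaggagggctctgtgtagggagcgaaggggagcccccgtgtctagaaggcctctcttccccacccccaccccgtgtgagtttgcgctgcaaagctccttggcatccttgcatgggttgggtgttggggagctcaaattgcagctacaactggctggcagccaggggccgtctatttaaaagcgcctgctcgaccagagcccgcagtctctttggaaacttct
Igfbp3 (chr11:7213924-7214173, minus strand): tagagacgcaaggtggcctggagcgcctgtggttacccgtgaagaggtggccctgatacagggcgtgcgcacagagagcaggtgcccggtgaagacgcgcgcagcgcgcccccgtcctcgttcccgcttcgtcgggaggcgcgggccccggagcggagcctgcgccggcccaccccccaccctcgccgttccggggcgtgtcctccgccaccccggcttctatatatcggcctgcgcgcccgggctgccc
The *Igfbp2* window shown held 3 GC boxes, while those of *Igfbp5* and *Igfbp3* held none. RefSeq lists a second start of *Igfbp2* downstream, whose window (chr1:72825137-72825386) held none and was 56.4% G or C, and the 3′ counts do not tell which start was used. Of all 32841 mouse promoters of this length, 32.7% held at least 1 GC box. The window of *Igfbp3* was 73.2% G or C, that of *Igfbp2* shown 67.2% and that of *Igfbp5* 58.8%, against a median of 52.4% over all promoters.

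Across all Pdgfra+ cells the stages differed most in *Igfbp2*, which was higher in the adult, and in *Igfbp3*, which was lower. *Igfbp2* was measured at 3.50 CPM (3.26 to 3.75) at puberty and 30.4 CPM (29.8 to 31.1) in the adult, a ratio of 8.70 (8.10 to 9.36). *Igfbp3* was measured at 402 CPM (400 to 405) and 156 CPM (154 to 157), a ratio of 0.387 (0.382 to 0.391). *Igfbp7* also passed the size rule of 1.5-fold with 715 CPM at puberty, 1126 CPM in the adult and a ratio of 1.57 (1.56 to 1.58). The remaining 6 members lay between 0.888 (*Igfbp6*) and 1.19 (*Igfbp4*). Thus 2 of 9 members were at least 1.5-fold higher in the adult, where 12% of the 8645 genes with at least 10 CPM were, and 1 of 9 was at least 1.5-fold lower, where 5.09% of genes were. The median gene itself was higher in the adult by 0.13 on the log2 scale, which a trimmed-mean scaling moved to -0.01, and that scaling took *Igfbp7* below the size rule and the ratio of *Igf1r* from 1.08 to 0.975.

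**Figure D1:**
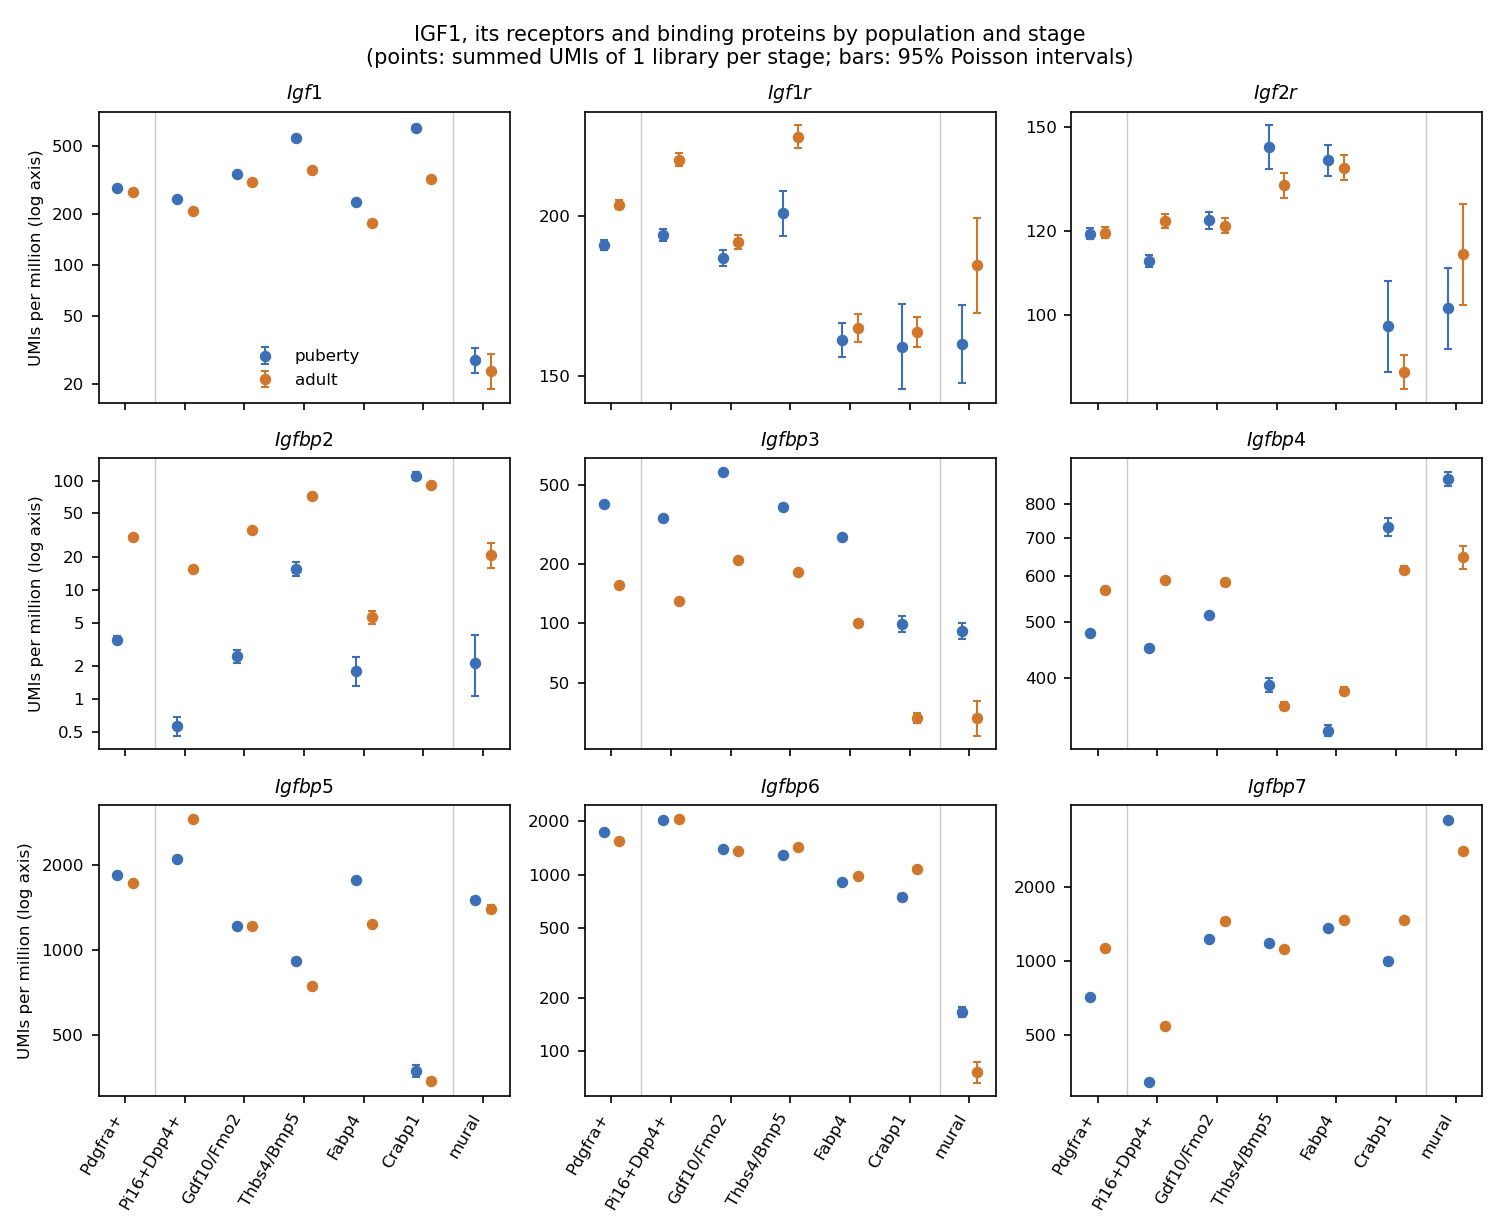
CPM (log axis, 1 panel per gene with its own range) in Pdgfra+ cells, the 5 subsets of them and mural cells, with puberty in blue and the adult in orange; bars are 95% Poisson intervals of 1 library per stage. *Igfbp3* is lower in the adult in every population drawn, *Igf1* is lower in all 5 adult subsets, and *Igfbp2* is higher in the adult except in the Crabp1 subset, at 110 and 90.8.

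The ligand gene *Igf1* was almost level between the stages in Pdgfra+ cells as a whole, at 282 CPM (280 to 284) and 267 CPM (265 to 269), yet lower in the adult inside each of the 5 subsets. In Crabp1 cells it was measured at 638 CPM (614 to 662) at puberty and 318 CPM (312 to 324) in the adult, a ratio of 0.498 (0.477 to 0.520). In Thbs4/Bmp5 cells the values were 555 and 359 CPM, a ratio of 0.647 (0.628 to 0.666). With shared cells counted, these were the subsets with the most *Igf1* at both stages, and both held a larger share of the adult cells. The ratio was 0.752 (0.726 to 0.779) in Fabp4 cells, 0.850 (0.837 to 0.864) in Pi16+Dpp4+ cells and 0.887 (0.874 to 0.900) in Gdf10/Fmo2 cells. When the adult cells were weighted to the pubertal mix of subsets, a calculation added after the values were seen, adult *Igf1* came to 214 CPM and the ratio to 0.759.

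Among subsets, the order of *Igf1* at puberty ran from Crabp1 through Thbs4/Bmp5, Gdf10/Fmo2 (343 CPM) and Pi16+Dpp4+ (243 CPM) to Fabp4 cells (234 CPM). In the adult, Thbs4/Bmp5 cells stood first and Crabp1 cells second, and no neighbouring pair in either order lay within counting error. The adult order depended on cells shared between subsets. Among cells of no other subset, Gdf10/Fmo2 cells stood first in the adult at 388 CPM (381 to 394). Thbs4/Bmp5 cells followed at 358 CPM (345 to 371) and Crabp1 cells at 285 CPM (275 to 295). The pubertal order stayed the same in such cells. After each cell was thinned to 3000 UMIs, *Igf1* was detected in 42.0% of pubertal and 41.4% of adult Pdgfra+ cells, and in 3.71% and 3.21% of mural cells (27.6 and 23.9 CPM). Before thinning, the median depth of mural cells was 6334 and 6126 UMIs, against 12187 and 11265 in Pdgfra+ cells. Mural cells with at least 3 UMIs of *Myh11* and *Rgs5* together had 17.3 and 5.29 CPM of *Igf1*, a ratio of 0.305 (0.160 to 0.542) in place of 0.863 (0.638 to 1.16), so the level read as background from free RNA or other cells depended on how mural cells were defined.

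The receptor genes differed little between stages and populations. *Igf1r* was measured at 190 CPM (188 to 191) at puberty and 204 CPM (202 to 206) in the adult, and *Igf2r* at 119 CPM (118 to 121) and 120 CPM (118 to 121). Both were found in every population, mural cells included. Among the subsets *Igf1r* was highest in Thbs4/Bmp5 cells at 201 and 230 CPM, at puberty within counting error of Pi16+Dpp4+ cells at 193 CPM, and lowest in Crabp1 and Fabp4 cells, whose values of 158 and 160 CPM at puberty and 162 and 163 CPM in the adult lay within counting error of each other. Mural cells had 159 CPM (148 to 170) at puberty and 183 CPM (168 to 199) in the adult, and the remaining cells without *Pdgfra* had 207 CPM (200 to 215) and 249 CPM (239 to 260). Among the subsets *Igf2r* was lowest in Crabp1 cells at 97.7 CPM (88.5 to 108) and 88.3 CPM (85.1 to 91.6) and highest in Thbs4/Bmp5 and Fabp4 cells, between 132 and 144 CPM. Neither receptor reached 1.5-fold between the stages or between any subset and the other Pdgfra+ cells.

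*Igf2r* shares its locus with *Airn* (chr17:12741311-12860136, plus strand), a long noncoding RNA transcribed against it that is known for silencing the paternal copy of *Igf2r* in other tissues. *Airn* is counted as a gene of its own in the matrices. How reads in the overlap were assigned was not checked, because the strand setting of the counting is not given in the sources used here. The overlap covers the 5′ part of *Igf2r* (chr17:12682406-12769664, minus strand), and the counts come from 3′ libraries. Across the 5 subsets and mural cells of both libraries (12 values), *Airn* was the gene whose pattern was most like that of *Igf2r*, with r = 0.97, at 495 to 779 CPM. *Igf1* likewise overlaps *Igf1os*, and *Igfbp7* overlaps *Polr2b* and *Gm34648*, each on the opposite strand.

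*Igfbp2*, which encodes a binding protein with an integrin-binding motif, had the fewest UMIs of the 9 members and was spread most unevenly over the subsets. At puberty it was measured at 110 CPM (100 to 121) in Crabp1 cells, 15.7 CPM in Thbs4/Bmp5 cells, 2.46 CPM in Gdf10/Fmo2 cells, 1.80 CPM in Fabp4 cells and 0.561 CPM (0.457 to 0.681) in Pi16+Dpp4+ cells. The 289 Crabp1 cells, with 1.79% of all UMIs of the pubertal Pdgfra+ cells, held 56.4% of those of *Igfbp2*. In the adult the values were 90.8 CPM (87.5 to 94.1) in Crabp1 cells, 72.7 CPM in Thbs4/Bmp5 cells, 35.2 CPM in Gdf10/Fmo2 cells, 15.6 CPM (14.9 to 16.3) in Pi16+Dpp4+ cells and 5.58 CPM in Fabp4 cells. The subset that was highest at puberty was thus the only one of the 5 in which the adult value was not higher, with a ratio of 0.824 (0.747 to 0.910). Crabp1 cells that met no other subset's rule differed far more, with 208 CPM (184 to 235) at puberty, 56.7 CPM (52.4 to 61.4) in the adult and a ratio of 0.272 (0.235 to 0.316), and asking for 1 more *Crabp1* UMI gave 0.639 (0.567 to 0.721). The ratio was 27.8 (22.8 to 34.3) in Pi16+Dpp4+ cells, 14.3 (12.6 to 16.4) in Gdf10/Fmo2 cells, 4.64 (4.00 to 5.42) in Thbs4/Bmp5 cells and 3.10 (2.24 to 4.36) in Fabp4 cells, where the gene stayed under 10 CPM at both stages.

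Detection of *Igfbp2* followed the same course. Of Pdgfra+ cells thinned to 3000 UMIs, 0.609% were positive at puberty and 4.57% in the adult, with 19.4% and 12.8% in Crabp1 cells. The 1% of adult Pdgfra+ cells with the most *Igfbp2* held 53.0% of its UMIs after thinning, against 9.50% for *Igf1*. At the pubertal mix of subsets the adult level came to 14.1 CPM and the ratio to 4.02. With equal weight for the cells of each subset that met no other subset's rule, the direction turned, to a log2 ratio of -0.70. That weighting gave 100 pubertal Crabp1 cells, with 208 CPM of *Igfbp2*, the same part in the mean as 9333 Pi16+Dpp4+ cells, with 0.220 CPM.

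*Igfbp2* also reached 20.8 CPM (15.9 to 26.7) in the adult mural cells, against 2.16 CPM (1.08 to 3.86) at puberty. Of its 61 adult UMIs, 60 lay in 30 cells that held at least 2 of 5 epithelial markers, where *Krt14*, a basal epithelial keratin, was at 519 CPM. The remaining 427 adult mural cells, with no epithelial marker, had 1 UMI (0.390 CPM, 0.00987 to 2.17), and 774 such cells at puberty had 2 UMIs (0.397 CPM, 0.0481 to 1.43). The levels in the adult fibroblast subsets, from 5.58 to 90.8 CPM, were all above the upper bound of this background, and that of the pubertal Pi16+Dpp4+ cells was not, so the size of the ratio in Pi16+Dpp4+ cells rests on a base no higher than background. In Pi16+Dpp4+ cells of no other subset the adult level was 4.03 CPM (3.53 to 4.58).

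*Igfbp3*, the binding protein that carries most IGF1 in the circulation together with the acid-labile subunit, had a lower adult level in all 5 subsets and in mural cells, where the fibroblast markers were lower as well, with their part in the result not tested. In Gdf10/Fmo2 cells, the highest at both stages, it was measured at 582 CPM (577 to 587) and 210 CPM (207 to 212), a ratio of 0.360 (0.355 to 0.366). In Pi16+Dpp4+ cells the values were 342 and 130 CPM, in Thbs4/Bmp5 cells 389 and 182 CPM, and in Fabp4 cells 275 and 101 CPM. The ratios over the 5 subsets lay between 0.333 (0.297 to 0.373) in Crabp1 cells and 0.466 (0.449 to 0.484) in Thbs4/Bmp5 cells, a narrow range beside that of *Igfbp2*. Crabp1 cells had the lowest level of the subsets, 99.5 CPM (90.3 to 110) and 33.1 CPM (31.2 to 35.2), within counting error of mural cells at 91.6 CPM (83.5 to 100) and 33.1 CPM (26.8 to 40.3). That closeness depended on the cells counted, as mural cells with no epithelial marker had 19.5 CPM (14.5 to 25.7) in the adult, and Crabp1 cells of no other subset had 16.6 CPM (10.3 to 25.3) and 6.51 CPM (5.08 to 8.21). In mural cells the ratio was 0.361 (0.287 to 0.450), 0.222 (0.162 to 0.298) without cells holding an epithelial marker and 0.558 (0.430 to 0.717) with at least 3 mural UMIs. The weighting of subsets hardly moved the ratio, which was 0.364 at the pubertal mix and between 0.351 and 0.414 over all 9 alternative settings. Detection in thinned Pdgfra+ cells was 36.0% at puberty and 15.6% in the adult.

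*Igfbp4*, a binding protein that generally inhibits IGF and is cut by the protease PAPP-A, was measured at 479 CPM (476 to 482) and 568 CPM (565 to 571) in Pdgfra+ cells and was highest in mural cells, at 886 CPM (860 to 912) and 648 CPM (619 to 678). Among the subsets it was highest in Crabp1 cells, at 731 and 616 CPM. These adult ranks depended on the cells counted. Adult cells of no other subset had 768 CPM (759 to 776) by the Gdf10/Fmo2 rule and 728 CPM (721 to 735) by the Pi16+Dpp4+ rule. Such Crabp1 cells had 649 CPM (634 to 664), and adult mural cells with no epithelial marker 732 CPM (699 to 766). At puberty Crabp1 cells of no other subset stayed first of the subsets, at 858 CPM (808 to 911) beside 839 CPM (828 to 851) in Gdf10/Fmo2 cells, with overlapping intervals. It was lowest in Fabp4 cells at puberty (324 CPM) and in Thbs4/Bmp5 cells in the adult (357 CPM). With shared cells counted, no population differed by 1.5-fold between the stages, the ratios running from 0.732 in mural to 1.31 in Pi16+Dpp4+ cells. In Pi16+Dpp4+ cells of no other subset the ratio was 1.54 (1.52 to 1.56), past the size rule.

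*Igfbp5*, a matrix-binding member that is known for its rise in the involuting gland and that the study counts among its fibroblast markers, had a clear gradient away from the progenitor-like subset. In Pi16+Dpp4+ cells it was measured at 2099 CPM (2093 to 2106) at puberty and 2920 CPM (2911 to 2930) in the adult, a ratio of 1.39 (1.38 to 1.40). In Crabp1 cells it was measured at 372 CPM (354 to 391) and 344 CPM (338 to 350). Fabp4 cells lay near the progenitor-like cells at puberty, at 1766 CPM, and lower in the adult, at 1232 CPM, a ratio of 0.698 (0.689 to 0.707). Among cells that met 1 subset rule only, the gap was wider, from 2500 and 4082 CPM in Pi16+Dpp4+ cells, whose ratio of 1.63 (1.62 to 1.64) passed the size rule, to 39.5 and 36.7 CPM in Crabp1 cells. Mural cells had 1506 and 1397 CPM and 90.0% and 80.2% of them were positive after thinning, so that the gene was not specific to Pdgfra+ cells in this stroma.

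For *Igfbp5* the total and the mix of cells pointed different ways. The Pdgfra+ cells as a whole had 1848 CPM at puberty and 1735 CPM in the adult, a ratio of 0.939 (0.935 to 0.943), and the share of thinned cells with a UMI was 68.6% and 49.7%. Within Pi16+Dpp4+ cells that share was 74.7% and 74.3%. At the pubertal mix of subsets the adult level came to 2775 CPM and the ratio to 1.502, just past the size rule. Equal weight per subset gave a log2 ratio of 0.14. Over the 5 subsets and mural cells, the gene was higher in the adult beyond counting error in 1, Pi16+Dpp4+ cells, and lower in 4. In Pdgfra+ cells of no subset the ratio was 0.436 (0.423 to 0.450).

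*Igfbp6*, a binding protein with a preference for IGF2, had, beside *Igf1*, the lowest level in mural cells relative to Pdgfra+ cells. It was detected in 92.2% and 88.9% of thinned Pdgfra+ cells, against 9.90% and 6.95% of mural cells. Pi16+Dpp4+ cells had the most at both stages, 2027 CPM (2021 to 2034) and 2071 CPM (2063 to 2080), and differed little between the stages. Crabp1 cells had 746 CPM (720 to 773) at puberty and 1071 CPM (1060 to 1082) in the adult, a ratio of 1.44 (1.38 to 1.49). Crabp1 cells of no other subset had 380 CPM (346 to 415) and 803 CPM (786 to 820), and their ratio of 2.11 (1.93 to 2.32) passed the size rule. In mural cells the values were 167 CPM (156 to 178) and 75.7 CPM (66.0 to 86.3), with a ratio of 0.454 (0.390 to 0.527), and 0.501 (0.429 to 0.582) without cells that held an epithelial marker. Both levels depended on cells with few mural UMIs, since mural cells with at least 3 such UMIs had 68.6 CPM (61.4 to 76.5) and 16.6 CPM (12.1 to 22.3), a ratio of 0.242 (0.173 to 0.332), while 27 pubertal cells with *Rgs5* but no *Myh11* had 1473 CPM. Fibroblast markers in the adult mural cells were lower as well, at a ratio of 0.336, and 0.333 with at least 3 mural UMIs, and their part in the *Igfbp6* values was not tested.

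*Igfbp7*, which binds IGFs weakly and is known as a component of vessel walls, was highest in mural cells, at 3751 CPM (3698 to 3805) and 2797 CPM (2737 to 2859). It was lowest in Pi16+Dpp4+ cells, at 321 CPM (318 to 324) and 543 CPM (539 to 548), a ratio of 1.69 (1.67 to 1.71). The 4 remaining subsets lay between 996 and 1359 CPM at puberty and between 1120 and 1474 CPM in the adult, and in the adult Crabp1, Fabp4 and Gdf10/Fmo2 cells were within counting error of their neighbours. That closeness depended on shared cells. Gdf10/Fmo2 cells of no other subset had 2752 and 2060 CPM, a ratio of 0.749 (0.741 to 0.757) in place of 1.19. Thbs4/Bmp5, Fabp4 and Crabp1 cells of no other subset lay between 1052 and 1328 CPM at puberty. In the adult they lay between 1114 and 1474 CPM. The higher level in the adult Pdgfra+ cells was nearly gone at the pubertal mix of subsets, at 748 CPM and a ratio of 1.05, and at equal weight the log2 ratio was -0.066. Mural markers in Fabp4 cells summed to 3.19% and 1.39% of their level in mural cells, and in Thbs4/Bmp5 cells to 2.26% and 0.677%. The part of mural RNA in the *Igfbp7* of these subsets was not tested.

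**Figure D2:**
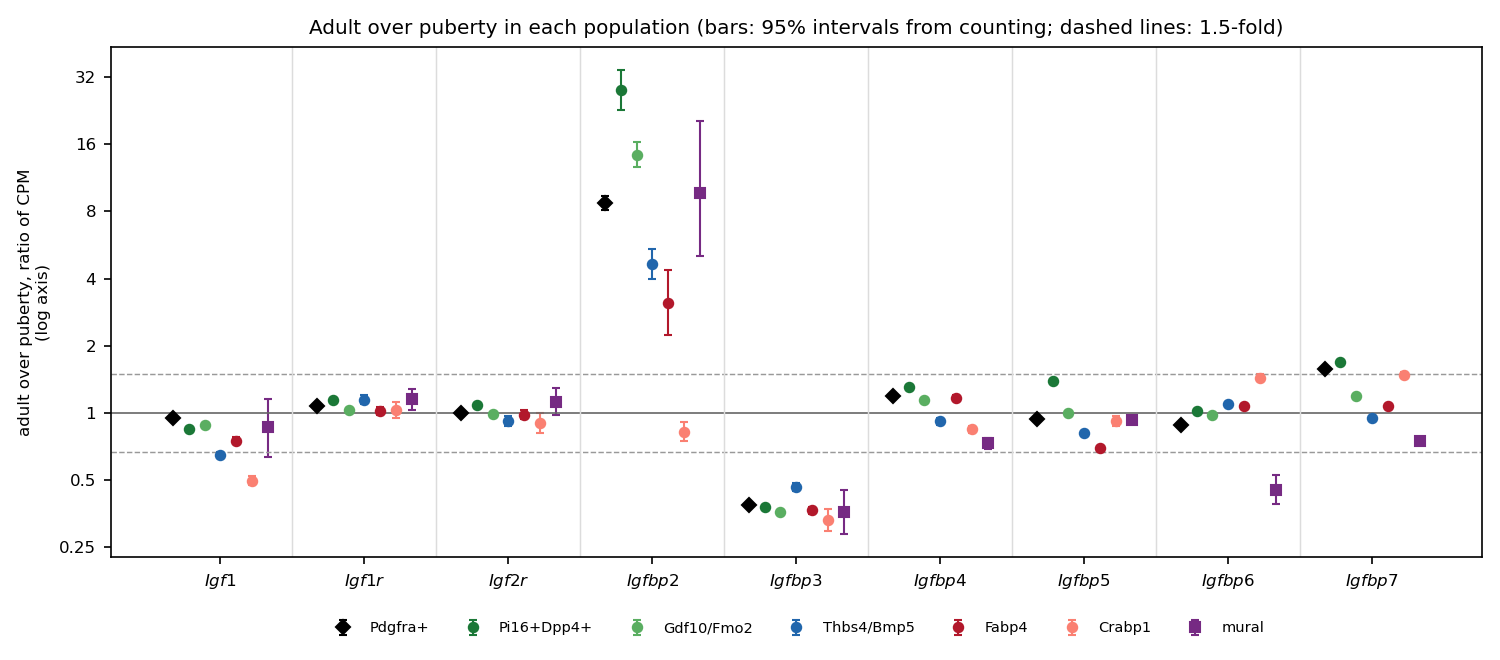
Ratio of adult over pubertal CPM (log axis) for each member in Pdgfra+ cells (black diamonds), the 5 subsets (circles) and mural cells (purple squares), with 95% counting intervals and dashed lines at 1.5-fold. The ratios of *Igfbp3* sit together below 0.5, those of *Igfbp2* spread from 0.824 in Crabp1 to 27.8 in Pi16+Dpp4+ cells, and those of the receptors stay close to 1.

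Counted by population, the members at least 1.5-fold apart between the stages were few. They were 3 of 9 in Pi16+Dpp4+ cells (*Igfbp2*, *Igfbp3* and *Igfbp7*), where 13.3% of genes were, or *Igfbp3*, *Igfbp4* and *Igfbp5* in cells of no other subset, and 2 of 9 in Gdf10/Fmo2 cells (*Igfbp2* and *Igfbp3*), where 16.4% were. In Thbs4/Bmp5 cells they were 3 of 9 (*Igf1*, *Igfbp2* and *Igfbp3*) beside 11.6% of genes, and in Fabp4 cells 1 of 8 (*Igfbp3*) beside 13.5%. In Crabp1 cells they were 2 of 9 (*Igf1* and *Igfbp3*) beside 14.7%, and 4 under each of 3 other definitions. *Igfbp2* and *Igfbp6* were added in cells of no other subset and with 1 more marker UMI, and *Igfbp5* and *Igfbp6* with likely doublets removed, where *Igfbp5* had a ratio of 0.528 (0.492 to 0.567). Mural cells had 3 of 9 (*Igfbp2*, *Igfbp3* and *Igfbp6*) beside 23.1% of genes, and without cells holding an epithelial marker 2 of them, *Igfbp3* and *Igfbp6*, while at least 3 mural UMIs added *Igf1* to make 4. The shares of genes belong to the main definitions. Counts under the other definitions have no such share beside them and are not read as a result about the members. Crabp1 cells of no other subset numbered only 100 at puberty.

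**Figure D3:**
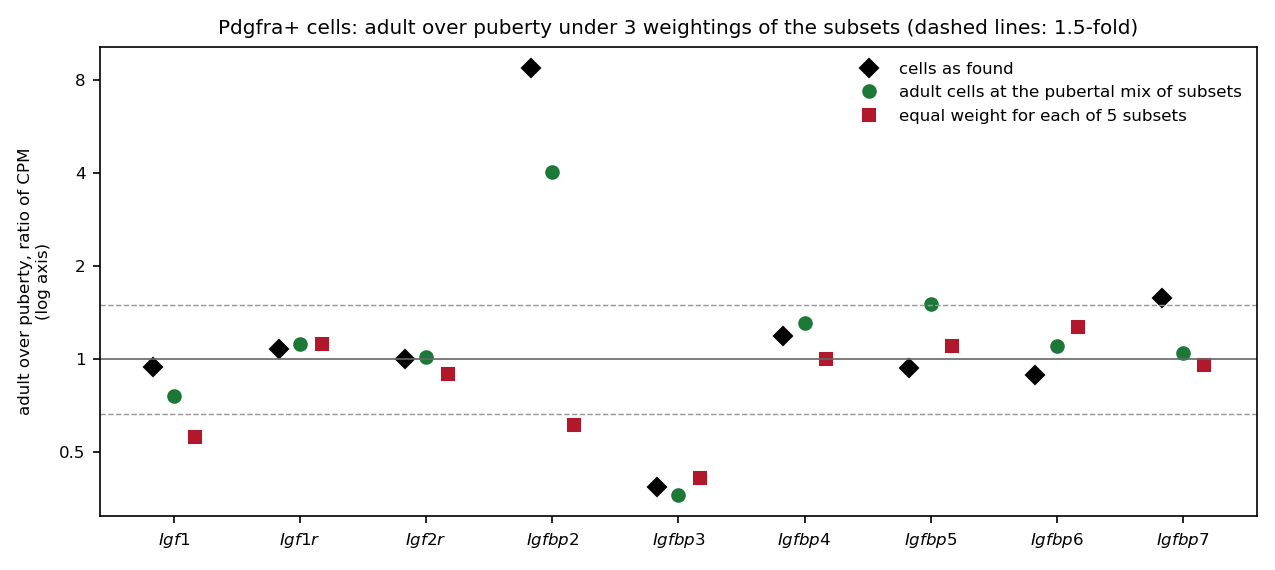
Ratio of adult over pubertal CPM in Pdgfra+ cells (log axis) with the cells as found (black), with adult cells at the pubertal mix of 19 classes of subset membership (green) and with equal weight for each of 5 subsets (red); dashed lines mark 1.5-fold. *Igfbp3* keeps its place under all 3, *Igfbp7* moves from 1.57 to 1.05 and *Igfbp5* from 0.939 to 1.5 at the pubertal mix, and *Igfbp2* crosses 1 at equal weight.

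Each subset was next set against the other Pdgfra+ cells of its own library, and a member was counted where it was at least 1.5-fold higher, or lower, in both libraries. In Pi16+Dpp4+ cells *Igfbp5* and *Igfbp6* were higher (2 of 9, beside 7.29% of genes), and *Igf1*, *Igfbp2* and *Igfbp7* were lower (3 of 9, beside 8.69%). *Igfbp5* was 2.07 and 4.85 times the level of the other cells, and *Igfbp7* 0.159 and 0.323 times. In Gdf10/Fmo2 cells the sides were different, with *Igfbp3* and *Igfbp7* higher (2 of 8, beside 1.83% of genes) and *Igfbp5* lower (1 of 8, beside 1.84%). *Igfbp3* there was 2.13 and 2.11 times the level of the other cells.

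Thbs4/Bmp5 cells had *Igfbp2* higher (1 of 9, beside 3.09% of genes), at 5.47 and 3.22 times, and *Igfbp5* lower (1 of 9, beside 2.37%). Fabp4 cells had no member higher (0 of 8, beside 3.7%), while *Igfbp3*, *Igfbp4* and *Igfbp6* were lower (3 of 8, beside 5.12%), all between 0.495 and 0.658 times. Crabp1 cells had *Igfbp2* higher (1 of 9, beside 9.15%), at 70.9 (61.7 to 81.6) and 4.25 (4.06 to 4.46) times, and *Igfbp3*, *Igfbp5* and *Igfbp6* lower (3 of 9, beside 8.93%). The 70.9 has no firm size, because Crabp1 cells held 56.4% of the *Igfbp2* UMIs of pubertal Pdgfra+ cells, which had 3.50 CPM in all. The level left in the other cells lay near the upper bound of the pubertal background, 1.43 CPM. *Igfbp5* in Crabp1 cells was 0.199 and 0.177 times the level of the others. Mural cells, set against all Pdgfra+ cells, had *Igfbp7* higher (1 of 8, beside 23.4%), at 5.25 and 2.48 times, and *Igf1*, *Igfbp3* and *Igfbp6* lower (3 of 8, beside 19.8%). *Igf1* in mural cells was 0.098 (0.0825 to 0.116) and 0.0895 (0.0697 to 0.113) times the level of the Pdgfra+ cells.

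The binding proteins also differed between cells with and without the ligand transcript. Among thinned Pdgfra+ cells, 7785 pubertal and 8521 adult cells had an *Igf1* UMI. *Igfbp5* was lower in them, at 1195 CPM against 2394 CPM at puberty and 898 CPM against 2075 CPM in the adult. *Igfbp3* was higher in them by 2.00 (1.95 to 2.06) and 1.86 (1.78 to 1.94) times, and *Igfbp2* by 8.19 (5.47 to 12.7) and 4.32 (3.92 to 4.77) times. The receptor *Igf1r* was close to even, at 0.935 times at puberty and with an interval of 0.967 to 1.04 times in the adult, and *Igf1* and *Igf1r* were found together in 16.6% and 18.1% of cells where the product of their shares gave 17.1% and 17.9%.

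These differences were also seen inside single subsets, with shared cells counted, so the mix of subsets was not held fixed. In Pi16+Dpp4+ cells, *Igfbp5* in *Igf1*-positive cells was 0.532 (0.524 to 0.540) times its level in *Igf1*-negative cells at puberty and 0.509 (0.500 to 0.518) times in the adult, and *Igfbp3* was 2.02 (1.95 to 2.09) and 2.55 (2.38 to 2.73) times. *Igfbp2* in adult Pi16+Dpp4+ cells was at 46.2 CPM where *Igf1* was detected and 2.29 CPM where it was not. Of all adult Pi16+Dpp4+ cells, 34.6% also met the Gdf10/Fmo2 rule and 15.6% the Thbs4/Bmp5 rule. Those of no other subset had 4.03 CPM of *Igfbp2*, and the part of shared cells in these ratios was not tested. *Igfbp5* was lower in *Igf1*-positive cells in all 5 subsets at both stages, although in the 288 pubertal Crabp1 cells the interval of 0.897 (0.698 to 1.16) included 1. Cells of 1 library are not replicates, and a cell can be *Igf1*-negative at 3000 UMIs for want of depth.

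**Figure D4:**
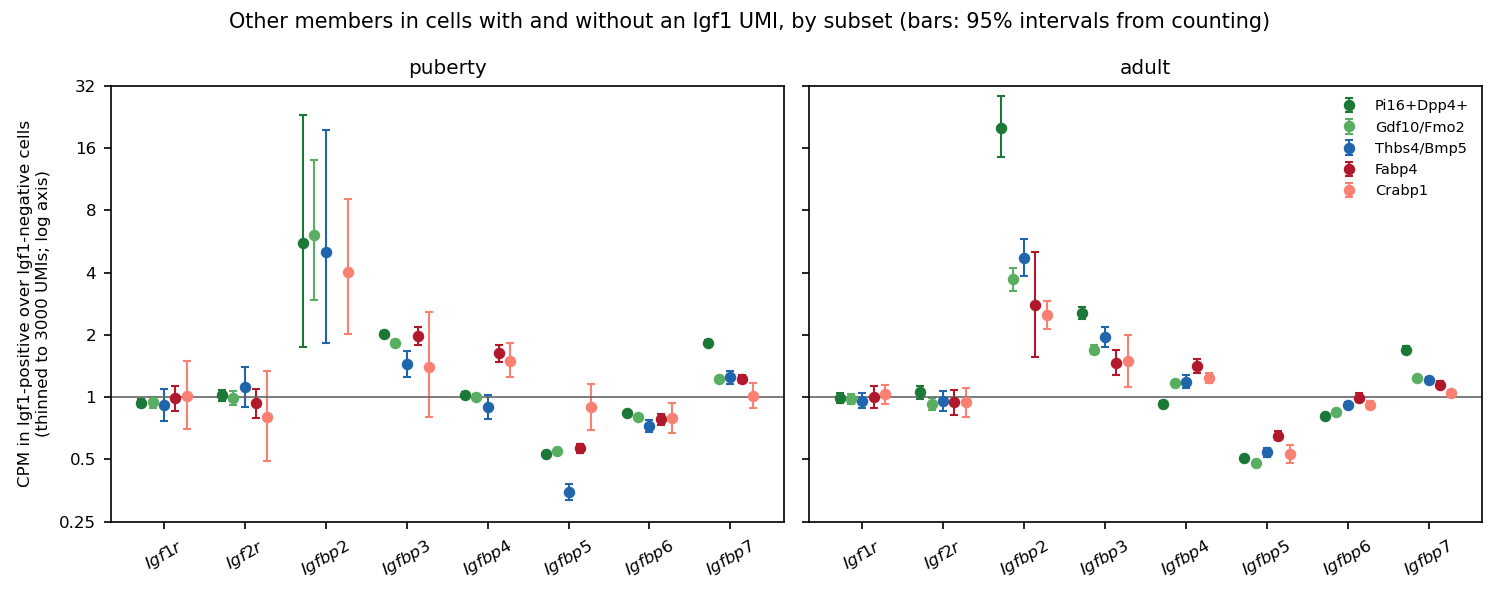
CPM of the other members in *Igf1*-positive over *Igf1*-negative cells (log axis), thinned to 3000 UMIs per cell, with 95% counting intervals. The 5 subsets, with shared cells counted, are drawn at puberty (left) and in the adult (right). *Igfbp2* in pubertal Fabp4 cells had no UMI on 1 side and is not drawn. *Igfbp2* and *Igfbp3* lie above 1 and *Igfbp5* below 1 in the subsets, for example at 20.1, 2.55 and 0.509 in adult Pi16+Dpp4+ cells, while *Igf1r* and *Igf2r* lie close to 1.

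Of the wider IGF pathway, 32 further genes were listed, and 21 of them had at least 10 CPM in Pdgfra+ cells at either stage. Their median log2 ratio was 0.28, beside 0.13 over all genes of that level. Of the 21, 4 were at least 1.5-fold higher in the adult (*Insr*, *Pappa*, *Foxo3* and *Mtor*) and 1 was lower (*Igf2bp2*), where 12% and 5.09% of all genes of that level were. The ratios of *Insr*, *Foxo3* and *Mtor* were 1.59, 1.51 and 1.59. The trimmed-mean factors, 0.952 at puberty and 1.05 in the adult, place these ratios below the size rule. The insulin receptor gene *Insr*, whose product can pair with IGF1R, was measured at 43.4 and 69.1 CPM. *Pappa*, the protease that cuts IGFBP4, was near the limit of the list at 6.33 and 11.8 CPM. *Pappa2*, also listed but under 10 CPM at both stages, went the other way, at 8.02 and 4.14 CPM. The RNA-binding protein gene *Igf2bp2* was measured at 91.7 and 35.9 CPM.

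Other parts of the pathway were nearly level. The growth hormone receptor gene *Ghr*, through which stromal IGF1 is induced, was measured at 400 and 333 CPM, and the feedback inhibitor gene *Socs2* at 69.6 and 84.4 CPM. The adaptor gene *Irs1* was measured at 72.4 and 83.5 CPM and *Irs2* at 231 and 243 CPM. The second ligand was nearly missing, with *Igf2* at 0.0887 and 0.0202 CPM, and so was the acid-labile subunit gene *Igfals*, at 1.11 and 1.67 CPM.

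For each member, the 3 genes of most similar pattern over the 12 population values were named from 8176 genes, as a description, since subsets share cells and each set of 6 values shares a library. Mural cells lay far below every subset for *Igf1* and *Igfbp6* and far above for *Igfbp7*. The r of these members therefore rests in part on that contrast, and no r without mural cells is given. *Igfbp6* was most like *Cd34* (r = 0.99), a surface antigen of stem and progenitor cells, then *Dipk2a* and *Gda*. *Igfbp7* was most like *Sparcl1* (r = 0.96), *Junb* and *Bltp1*, and *Igf1* like *Tbc1d8b* (r = 0.97), *Sec31a* and *Galnt17*. *Igfbp2* was most like *Ptpre* (r = 0.96), *Nkd2*, an inhibitor of Wnt signalling, and *Pcdh18*. *Igfbp3* was most like *Chd3* (r = 0.97), *Fgl2* and *Cpeb2*. The likeness was weaker for *Igfbp5* (*Nadk*, r = 0.90), *Igfbp4* (*Armcx1*, r = 0.86) and *Igf1r* (*Ypel3*, r = 0.92).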

How the data were processed

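The authors deposited, for each library, raw UMI counts in a filtered matrix of genes by cells, which the file headers credit to Cell Ranger 8.0.1, mapped to mm10 per the submitters' processing notes, with no normalization. The annotation release and strand setting are not given in the sources used here, and 31961 of the 33696 gene identifiers are in GENCODE vM21, which was used only for positions. Kit, Cell Ranger release and pubertal age differ between the labels and the study's methods, and the labels and headers were followed.

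Counts were summed over the cells of each population and divided to counts per 1000000 UMIs (CPM). CPM of a 3′ library were not divided by transcript length, so levels are compared between populations and not between genes. Detection was measured after thinning cells of at least 3000 UMIs to 3000 at random, which left out 336 pubertal and 426 adult Pdgfra+ cells. Shares have exact Clopper-Pearson intervals. A member was counted where it differed by at least 1.5-fold with at least 10 CPM on 1 side, and the same rule over all genes gave the percentages beside the counts. With 1 library per stage no test was run, and differences have no replicate check. On simulated counts of the Pdgfra+ comparison, drawn for 33696 genes, the size rule called 100 of 100 genes raised and 100 of 100 lowered 2-fold and 0 of 7804 unchanged ones, and 95.8% of 500 intervals held the true ratio, with no spread between animals drawn. Changed genes were drawn from those with at least 20 CPM at puberty, where counting noise alone could hardly alter a call. This checks the calculation only and does not cover genes as low as *Igfbp2* at puberty (3.50 CPM). Likeness is Pearson's r of log2(CPM + 5) over genes with at least 20 CPM in 1 population, and the 3 genes of highest r were named per member.

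Doublets were not removed in the main values. As an alternative, the highest Scrublet scores (scanpy 1.11.5) were removed at 0.4% per 1000 barcodes (8.67% at puberty, 9.27% in the adult), since Scrublet's own threshold marked 0% and 3.01%, together with cells above the 99th percentile of genes. Trimmed-mean scaling used edgeR 4.0.16 (factors only). Promoters are from RefSeq (GRCm38.p6), where all 9 members were matched. The members, gene lists and rules were chosen with earlier results of these data known. Weighting to the pubertal mix, leaving out mural cells with epithelial markers and the split of *Igf1*-positive cells by subset were added after values were seen.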

Additional observations from a re-analysis of the deposited data

Results flagged for a closer look

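For 6 members, the adult over pubertal ratio lay above 1 in 1 population and below 1 in another beyond counting error, with 1 library per stage, and the difference was not tested. The *Igfbp2* ratio in Pi16+Dpp4+ cells was 33.8 times that in Crabp1 cells, a value without a firm size, because the pubertal Pi16+Dpp4+ level of 0.561 CPM was not above background. The *Igfbp6* ratio in Crabp1 cells was 3.16 times that in mural cells. The *Igfbp7* ratio in Pi16+Dpp4+ cells was 2.27 times that in mural cells, where leaving out cells with an epithelial marker gave 3787 and 3160 CPM and a ratio of 0.834 (0.813 to 0.856). The *Igfbp5* ratio in Pi16+Dpp4+ cells was 1.99 times that in Fabp4 cells, the *Igfbp4* ratio in Pi16+Dpp4+ cells was 1.79 times that in mural cells, and the *Igf2r* ratio in Pi16+Dpp4+ cells was 1.18 times that in Thbs4/Bmp5 cells.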

How the results depend on the processing

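Of 2 members at least 1.5-fold higher in adult Pdgfra+ cells, 1 was left with trimmed-mean scaling or a 2-fold rule and 0 with equal weight per subset, which gave 3 rather than 1 lower (*Igf1*, *Igfbp2* and *Igfbp3*) and turned *Igfbp2* to -0.70 and *Igfbp7* to -0.066 (log2). At the pubertal mix the counts stayed at 2 and 1, with *Igfbp5* in place of *Igfbp7*. Between stages, Fabp4 cells went from 1 to 2 members in cells of 1 subset only, and Crabp1 cells from 2 to 4 there, with doublets removed or with 1 more marker UMI. Against other Pdgfra+ cells, a 2-fold rule left 1 of 2 higher and 0 of 1 lower in Gdf10/Fmo2 cells and 0 of 3 lower in Fabp4 cells, and cells of 1 subset only gave 2 in place of 1 lower in Thbs4/Bmp5 cells. These changed counts have no share over all genes beside them. The pathway median of 0.28 became 0.14 with trimmed-mean scaling, which scales all genes of a library alike and moved the median over all genes from 0.13 to -0.01. It became 0.14 with no minimum CPM, 0.13 at the pubertal mix and -0.015 at equal weight, where the median over all genes was 0.092. The cause of these other shifts was not tested. Cell filters (5% mitochondrial, 1000 genes, 2 *Pdgfra* UMIs) kept all 20 counts within 1.5 times. *Igfbp2* in pubertal Pi16+Dpp4+ cells rests on 102 UMIs, and Crabp1 at puberty on 289 cells. No paired analysis was possible because the stages share 1 replicate number with 1 library each and the results come from no test.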

Other observations

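Pdgfra+ cells with at least 10 UMIs of *Igfbp2*, a class chosen after its values were seen and described without a test, numbered 16 of 18878 at puberty and 196 of 20999 in the adult. They held 30.9% and 50.8% of the *Igfbp2* UMIs. Of the adult cells, 122 (62.2%) met the Gdf10/Fmo2 rule, 92 (46.9%) the Thbs4/Bmp5 rule and 73 (37.2%) the Crabp1 rule, with overlaps. Of the pubertal cells, 9 met the Crabp1 rule and 7 the Thbs4/Bmp5 rule. *Col7a1*, the anchoring fibril collagen gene, *Tnc*, the gene of the matrix glycoprotein tenascin-C, and *Fhod3* were among the 10 genes of largest fold in both libraries. *Col7a1* was measured at 441 CPM at puberty and 272 CPM in the adult, against 5.75 and 17.3 CPM in the other Pdgfra+ cells, and *Tnc* at 929 and 505 CPM, against 21.1 and 76.5 CPM. In the same cells *Igf1* was at 790 and 796 CPM, against 282 and 261 CPM, and *Igfbp5* at 194 and 204 CPM, against 1849 and 1750 CPM. *Igfbp3* was at 11.6 and 29.9 CPM, against 403 and 157 CPM, although it was higher in *Igf1*-positive cells as a whole.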
